A study of Mus musculus with 2 samples.

Results

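The interleukin-1 (IL-1) and interleukin-36 (IL-36) family is described here through 10 genes measured in the skin of newborn mice, the ligands *Il1a*, *Il1b*, *Il18*, *Il36a*, *Il36b* and *Il36g*, the receptor antagonists *Il1rn* and *Il36rn*, and the receptors *Il1r1* and *Il1r2*. The members were taken by gene name, as probes other than controls that the scanner files list under these symbols or, for the IL-36 genes, under the older names *Il1f5* (*Il36rn*), *Il1f6* (*Il36a*), *Il1f8* (*Il36b*) and *Il1f9* (*Il36g*). They gave 11 probes on 20 spots, of 39429 probes on 43020 spots and of 30133 genes in all. The study compared *Pnpla1*+/+ (wild-type) with *Pnpla1*-/- (knockout) C57BL/6N mice at postnatal day 0, with no further treatment, in order to describe the skin of mice that lack PNPLA1, a patatin-like phospholipase family protein of the upper epidermis whose gene is mutated in a form of congenital ichthyosis. For each genotype, total RNA of 6 animals was pooled in equal amounts and hybridized to 1 Agilent 1-colour array. With 1 array per genotype there was no replicate, no test was possible, and every difference below describes these pools only. The knockout is global, and the controls were littermates. The authors describe the knockout-first allele *Pnpla1*tm1a(KOMP)Wtsi and the removal of its *IRES-LacZ* and *Neo* cassettes by flippase. Their methods text does not say which step made the allele null.

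IL-1α and IL-1β bind the receptor IL-1R1, which recruits the accessory protein IL-1RAP and signals through MYD88 and IRAK kinases to NF-κB. The antagonist encoded by *Il1rn* occupies the same receptor without signalling, and IL-1R2 is a decoy that binds the ligands but carries no signalling domain. The 3 IL-36 agonists act in the same manner through IL-1RL2 and IL-1RAP and are held back by the antagonist encoded by *Il36rn*, whereas IL-18 has a receptor of its own. In the epidermis, keratinocytes make several of these ligands, IL-1α serves as an alarm signal released from damaged cells, and inherited loss of either antagonist in humans causes pustular skin inflammation.

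Each value is the processed signal of a probe (its background-subtracted fluorescence, in arbitrary units), and a difference is the log2 value in *Pnpla1*-/- skin minus that in *Pnpla1*+/+ skin once each array had been divided by its 75th percentile, 2108 in *Pnpla1*+/+ and 1734 in *Pnpla1*-/- skin. Of the spots, 71.7% were well above background on the *Pnpla1*+/+ array and 73.3% on the *Pnpla1*-/- array, and none was saturated. The error after ± is that of the scanner software for the processed signal, carried over to the log2 difference. The technical spread was smaller, with a median SD of 0.08 for the difference of a single spot over 314 probes with at least 8 repeated spots. Both leave out the variation between mice. *Pnpla1* itself had a signal of 579 in *Pnpla1*+/+ and 114 in *Pnpla1*-/- skin, with a difference of −2.07, and the knockout signal also exceeded background. The authors report that *Pnpla1* mRNA, by quantitative PCR, and PNPLA1 protein, by immunohistochemistry, were absent from knockout skin. The place of this array probe relative to the disrupted part of the gene is not given in the sources used here. The pools were not matched in sex-linked signals, as *Xist* read 853 in *Pnpla1*+/+ and 1528 in *Pnpla1*-/- skin and the Y-linked *Ddx3y* 1863 and 336. No member lies on a sex chromosome, and the part of the sex ratio in the members' differences was not tested.

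The difference was above 0 for every member but *Il18*. All 10 members were well above background on both arrays. At least 2-fold higher were 6 of them (*Il36a*, *Il1a*, *Il36g*, *Il1b*, *Il1rn* and *Il1r2*), against 6.7% of the 22382 genes with a difference, and 1 member (*Il18*) was at least 2-fold lower, against 3.04% of those genes. The other 3 members (*Il36b*, *Il36rn* and *Il1r1*) had differences above 0 but under 2-fold. The median difference over the members was 1.79, and over all genes it was 0.00, with quartiles of −0.26 and 0.32. Over the whole array, 2180 genes were past 2-fold, of which 1499 (68.8%) were higher and 681 lower. This split depended on the scaling, with 41.2% higher without scaling and 27.5% after centring on the spike-in RNA, while 1 member was lower under all 12 alternatives of scaling, background, probe, filter and spot flags, and 6 were higher under all but cyclic loess, which gave 7.

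**Figure D1:**
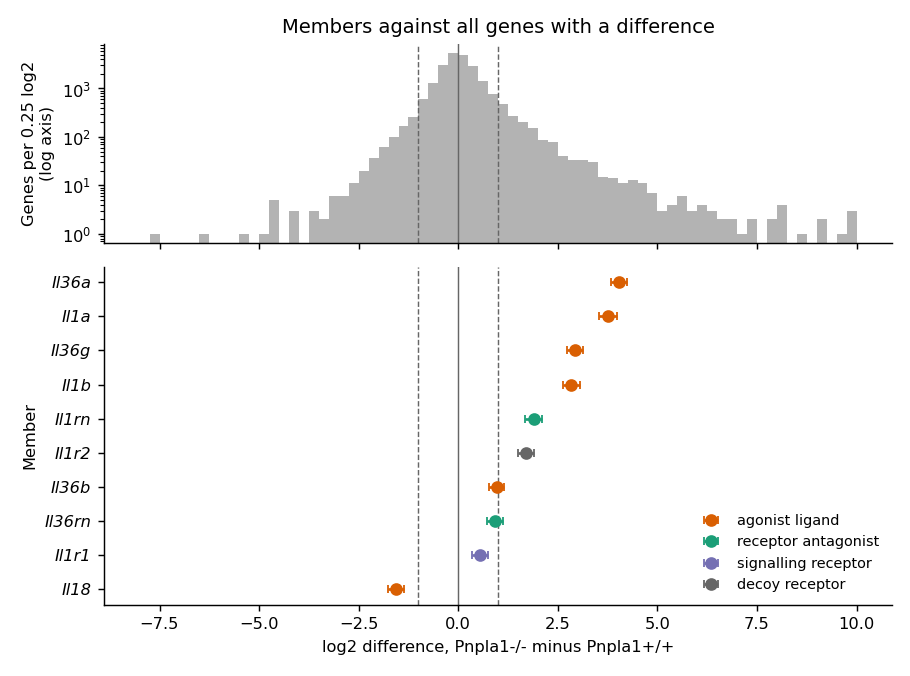
The upper panel shows how many genes (log axis) had each log2 difference, Pnpla1-/- minus Pnpla1+/+, in bins of 0.25, over 22382 genes. The lower panel shows the 10 members on the same axis, coloured by role, with bars for the scanner software's error (0.20 to 0.22). Dashed lines mark 2-fold, 6 members lie beyond the right line and *Il18* lies beyond the left one.

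Both IL-1 agonist genes were severalfold higher in *Pnpla1*-/- skin. *Il1a*, which encodes the IL-1α precursor, had a signal of 101 in *Pnpla1*+/+ and 1127 in *Pnpla1*-/- skin. Its difference was 3.76 ± 0.22 (13.6-fold), and 0.433% of the 22382 genes with a difference had one at least as large. Genes that cleared background on 1 array only count at a bound, so this share is a minimum. The probe lies at chr2:129125994-129126053 of mm9, the build of the scanner files. *Il1b*, which encodes the IL-1β precursor that caspase-1 cleaves to the active cytokine, had a mean signal of 132 in *Pnpla1*+/+ and 776 in *Pnpla1*-/- skin. Its difference was 2.84 ± 0.21 (7.14-fold), with the probe at chr2:129190347-129190406. In these pooled whole-tissue samples, more cells of a type that express a gene and more RNA of that gene per cell cannot be told apart.

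*Il1b* was the member with repeated spots, 10 of the same probe on each array, which show the technical spread directly. Over the 7 spots used, the signal ran from 127 (lowest) through 130 (median) to 140 (highest) in *Pnpla1*+/+ skin, and from 751 through 779 to 790 in *Pnpla1*-/- skin. The SD on the log2 scale was 0.05 and 0.03, the spots of the genotypes did not overlap, and the difference of single spots lay between 2.72 and 2.89. The scanner software had flagged 3 spots of the *Pnpla1*+/+ array as outliers, and these were left out. The flagged spots lay between 126 and 218 in *Pnpla1*+/+ skin and between 745 and 843 at the same places in *Pnpla1*-/- skin, so that the highest of all 10 spots in *Pnpla1*+/+ skin, 218, was still below the lowest in *Pnpla1*-/- skin, 745. These are repeated readings of 1 labelled RNA pool, not of different mice.

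**Figure D2:**
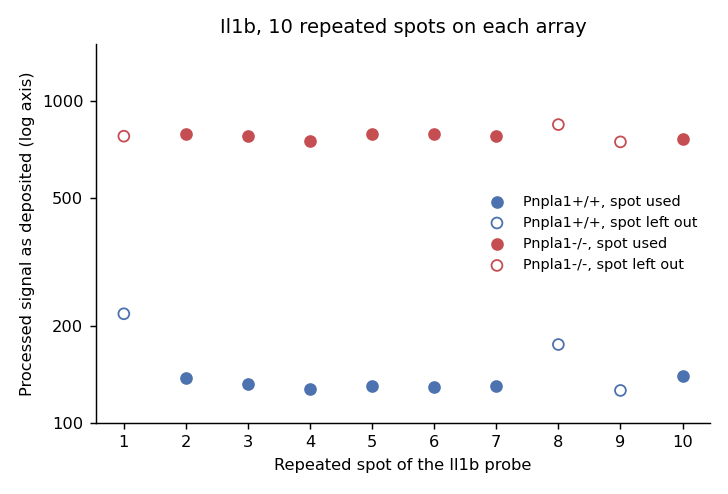
Processed signal (log axis) of the 10 repeated spots of the *Il1b* probe on each array, with open symbols for the 3 spots that were left out. All *Pnpla1*-/- spots (745 to 843) lie above all *Pnpla1*+/+ spots (126 to 218).

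Of the IL-36 agonists, *Il36a* and *Il36g* were far higher in *Pnpla1*-/- skin, and *Il36b* less so. *Il36a* had a signal of 3308 in *Pnpla1*+/+ and 44734 in *Pnpla1*-/- skin, the largest difference of the family at 4.04 ± 0.20 (16.4-fold). At least 0.375% of the genes with a difference had one as large or larger. *Il36g* had a signal of 414 in *Pnpla1*+/+ and 2605 in *Pnpla1*-/- skin, with a difference of 2.93 ± 0.20 (7.65-fold). *Il36b* had a signal of 1867 in *Pnpla1*+/+ and 2994 in *Pnpla1*-/- skin, with a difference of 0.96 ± 0.20 (1.95-fold), close to the 2-fold line. The *Il36a* difference exceeded that of *Il36b* by 3.08 ± 0.28, and the *Il36g* difference exceeded it by 1.97 ± 0.28, so that the genes of the 3 agonists of 1 receptor moved by unequal amounts between the pools. Their probes lie side by side on chromosome 2 of mm9, at chr2:24015564-24015623 (*Il36b*), chr2:24048293-24048352 (*Il36g*) and chr2:24081127-24081186 (*Il36a*).

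**Figure D3:**
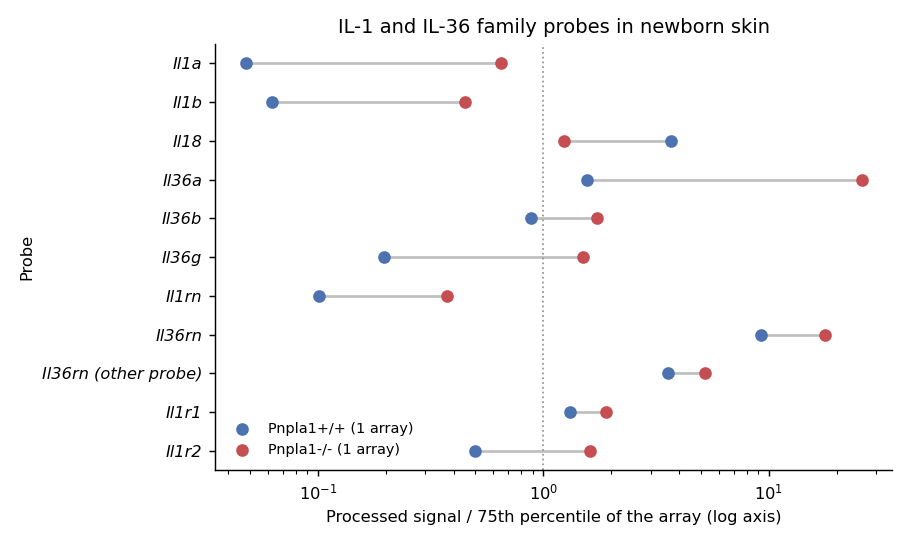
Processed signal of each member's probe divided by the 75th percentile of its array (log axis), with 1 point per array and a grey line joining the genotypes. The dotted line marks the 75th percentile. The *Pnpla1*-/- point lies to the right of the *Pnpla1*+/+ point for every probe but *Il18* (3.68 in *Pnpla1*+/+ and 1.24 in *Pnpla1*-/- skin), and the widest gap is that of *Il36a* (1.57 and 25.8).

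*Il18* was the member that went the other way. The gene encodes the IL-18 precursor, which caspase-1 also cleaves and which is abundant in unstimulated epithelia, and its signal was 7762 in *Pnpla1*+/+ and 2147 in *Pnpla1*-/- skin. The difference was −1.57 ± 0.20 (2.97-fold lower), and at least 1.04% of the genes with a difference had one as low or lower. Against *Il1a*, another ligand stored as a precursor in keratinocytes, the gap between the differences was 5.33 ± 0.30. The probe lies on another chromosome than the rest of the ligands, at chr9:50389761-50389820 of mm9.

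To show the sequence next to these ligand genes, the 250 bases before the annotated start are printed for *Il1a* and *Il1b*, whose differences were large and whose starts are annotated in the same neighbourhood, for *Il36g* of the IL-36 agonists, and for *Il18*, which was lower. They were taken from RefSeq on GRCm38.p6, a later build than that of the probes, at chr2:129309973-129310222, minus strand (*Il1a*), chr2:129371140-129371389, minus strand (*Il1b*), chr2:24186226-24186475, plus strand (*Il36g*) and chr9:50554450-50554699, plus strand (*Il18*). They run 5′ to 3′ on the strand of the gene and end at the base before the start. Capitals mark letters that match a searched motif on either strand.

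*Il1a*: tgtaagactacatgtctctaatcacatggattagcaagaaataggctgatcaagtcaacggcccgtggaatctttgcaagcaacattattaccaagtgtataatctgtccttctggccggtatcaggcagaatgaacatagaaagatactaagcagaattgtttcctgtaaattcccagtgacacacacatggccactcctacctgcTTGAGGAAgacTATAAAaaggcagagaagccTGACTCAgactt

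*Il1b*: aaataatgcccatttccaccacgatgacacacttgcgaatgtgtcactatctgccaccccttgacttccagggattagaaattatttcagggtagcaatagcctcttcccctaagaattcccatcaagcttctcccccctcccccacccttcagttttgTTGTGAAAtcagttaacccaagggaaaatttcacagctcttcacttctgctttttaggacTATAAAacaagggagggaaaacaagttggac

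*Il36g*: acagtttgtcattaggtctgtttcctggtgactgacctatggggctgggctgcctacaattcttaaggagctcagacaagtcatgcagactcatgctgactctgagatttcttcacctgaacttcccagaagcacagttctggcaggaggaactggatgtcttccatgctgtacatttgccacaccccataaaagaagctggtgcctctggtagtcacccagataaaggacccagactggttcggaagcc

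*Il18*: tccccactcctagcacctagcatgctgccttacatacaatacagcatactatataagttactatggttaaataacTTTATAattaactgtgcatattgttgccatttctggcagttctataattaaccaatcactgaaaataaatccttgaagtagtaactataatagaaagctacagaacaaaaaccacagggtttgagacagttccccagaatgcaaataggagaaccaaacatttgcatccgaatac

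The motifs searched were an NF-κB motif (GGNNTTNCC), an AP-1 motif (TGANTCA), a C/EBP motif (TTNNGNAA) and a TATA box (TATAAA), where N is any base, and no match of different motifs overlapped in these 4 windows. In *Il1a*, the capitals mark from left to right a C/EBP match, a TATA box that begins 32 bases before the start, and an AP-1 match that begins 12 bases before it. In *Il1b*, they mark a C/EBP match and a TATA box that begins 31 bases before the start. The *Il36g* window held none of the 4 motifs, and that of *Il18* held the TATA letters on the other strand, 175 bases before the start. Of all 32817 windows of this length, 13.5% held the NF-κB motif, 6.75% the AP-1 motif, 36.8% the C/EBP motif and 12.4% the TATA box. Windows were in the table for 9 of the 10 members, with *Il36a* the other, and some members had several windows, which can overlap. Of the 13 windows of these members, 2 held the NF-κB letters (2 genes), 3 the AP-1 (3 genes), 7 the C/EBP (5 genes) and 3 the TATA letters (3 genes). A match is a description of the letters and not a binding site, and no match says only that these letters are not in the window.

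Both antagonist genes were higher in *Pnpla1*-/- skin, *Il1rn* by more than 2-fold and *Il36rn* by less. *Il1rn*, the IL-1 receptor antagonist, had a signal of 214 in *Pnpla1*+/+ and 651 in *Pnpla1*-/- skin, with a difference of 1.89 ± 0.21 (3.71-fold), at chr2:24205094-24205153 of mm9. *Il36rn*, the IL-36 receptor antagonist, was measured by 2 probes. Its brighter probe, at chr2:24137480-24137539, gave 19527 in *Pnpla1*+/+ and 30665 in *Pnpla1*-/- skin, with a difference of 0.93 ± 0.20 (1.91-fold). The other probe, at chr2:24138877-24138936, gave 7553 in *Pnpla1*+/+ and 9031 in *Pnpla1*-/- skin, with a difference of 0.54 ± 0.20 (1.45-fold). The probes had the same direction and differed in size.

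Set against its antagonist, the agonist had the larger difference in all 5 pairs, by less than the scanner error for *Il36b*. This comparison of differences does not depend on any scaling by a single factor per array. *Il36a* exceeded *Il36rn* by 3.11 ± 0.28 on the log2 scale (8.61-fold) and *Il36g* exceeded it by 2.0 ± 0.28 (4.0-fold), whereas *Il36b* and *Il36rn* differed by 0.03 ± 0.28. With the other *Il36rn* probe, these gaps were 3.50, 2.39 and 0.42. *Il1a* exceeded *Il1rn* by 1.87 ± 0.30 (3.66-fold) and *Il1b* exceeded it by 0.95 ± 0.30 (1.93-fold). Over the 12 alternatives, the gap between *Il36a* and *Il36rn* ranged from 3.07 to 3.30, that between *Il1a* and *Il1rn* from 1.58 to 1.87, and that between *Il36b* and *Il36rn* from −0.05 to 0.23.

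Of the receptors, the decoy had the larger difference. *Il1r1*, the signalling receptor of IL-1α and IL-1β, had a signal of 2752 in *Pnpla1*+/+ and 3296 in *Pnpla1*-/- skin, with a difference of 0.54 ± 0.20 (1.46-fold). *Il1r2*, the decoy, had a signal of 1052 in *Pnpla1*+/+ and 2796 in *Pnpla1*-/- skin, with a difference of 1.69 ± 0.20 (3.23-fold). The *Il1r2* difference exceeded that of *Il1r1* by 1.15 ± 0.28. Their probes lie on chromosome 1 of mm9, at chr1:40180014-40180073 (*Il1r2*) and chr1:40372667-40372726 (*Il1r1*), and the *Il1r1* difference was 0.11 after spike-in centring.

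Among 11 relatives of the family and further receptor subunits, 6 were past 2-fold, 5 of them higher and 1 lower, and the median difference was 0.95 over the 10 with a value (0.52 after spike-in centring). Of these 10, 2 cleared background only on the *Pnpla1*-/- array and could only come out higher, and of the other 8, with a median of 0.81, 4 were higher and 1 lower. Spike-in centring, no scaling and normexp each left 2 of the 5 higher genes past 2-fold, *Il1rl2* was also under it after quantile normalization and cyclic loess, and after normexp the lower gene, *Il1f10*, was under it too. *Il33*, an alarm cytokine of epithelial nuclei, had a signal of 247 in *Pnpla1*+/+ and 1530 in *Pnpla1*-/- skin (difference 2.92), while the gene of its receptor, *Il1rl1*, had 3738 and 3295 (difference 0.10, with −0.36 and 0.37 for its other probes). *Il1f10*, which encodes IL-38, was lower, with 328 and 113 (difference −1.26). For the IL-36 receptor, *Il1rl2* had a signal of 56.9 in *Pnpla1*+/+ and 98.3 in *Pnpla1*-/- skin (difference 1.07), and the shared accessory protein gene *Il1rap* had 260 and 314 (difference 0.56, with 0.38 and 0.00 for its other probes). On the IL-18 side, the receptor gene *Il18r1* was higher by 1.12 at its brighter probe and by 0.66 at the other, and the gene of the soluble inhibitor, *Il18bp*, was higher by 1.20. The second receptor subunit gene, *Il18rap*, cleared background only on the knockout array, which gives a bound of at least 4.0-fold higher. After normexp its bound was under 2-fold.

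Of 14 genes for the processing of the precursors, 6 were at least 2-fold higher, none was at least 2-fold lower, and the median difference was 0.94 (0.51 after spike-in centring). Of the 12 genes that cleared background on both arrays, 4 were at least 2-fold higher and the median was 0.88. The count of 6 was 4 after spike-in centring and 3 after normexp, and 1 gene (*Nlrp3*) was at least 2-fold lower after spike-in centring and without scaling. *Ctss*, the protease cathepsin S, had a signal of 4153 in *Pnpla1*+/+ and 14546 in *Pnpla1*-/- skin (difference 2.09), and *Casp4*, the non-canonical inflammatory caspase, had 1925 and 5359 (difference 1.76). The DNA sensor gene *Aim2* was higher by 1.46 and the neutrophil protease gene *Prtn3* by 1.21, while the other neutrophil protease genes of the list, *Elane* and *Ctsg*, differed by 0.05 and −0.06. The sensor genes *Nlrp1b* and *Nlrc4* gave bounds of at least 2.81-fold and 2.45-fold higher. After normexp both of these and *Prtn3* were under 2-fold, and after spike-in centring *Nlrc4* and *Prtn3* were. Another probe of *Nlrp1b*, which has close paralogues, gave 0.21. *Casp1*, the caspase that cleaves IL-1β and IL-18, had 1487 and 2434 (difference 0.99), and *Nlrp3*, a sensor upstream of it, had 158 and 73.3 (difference −0.83), neither past 2-fold as reported. *Casp1* passed it after cyclic loess.

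Of 18 receptor adaptors and kinases, 2 were at least 2-fold higher and the other 16 were within 2-fold, with a median difference of 0.16 that was −0.27 after spike-in centring and −0.12 without scaling. *Myd88*, the adaptor shared by these receptors, had a signal of 2809 in *Pnpla1*+/+ and 4812 in *Pnpla1*-/- skin, with a difference of 1.06 from 10 spots. *Irak3*, an inhibitory member of the IRAK family, had 615 and 1245, a difference of 1.30. After spike-in centring neither passed 2-fold, and *Myd88* was also under it with median scaling and without scaling. Among genes within 2-fold at their brightest probe, another probe gave 1.13 for *Nfkb1*, an NF-κB subunit gene, and 1.01 for the kinase gene *Irak4*.

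Of 21 genes that keratinocytes are known to induce on exposure to IL-1 or IL-36, 14 cleared background on both arrays, and all 14 were at least 2-fold higher, with differences from 1.19 to 6.26 and a median of 2.76. A further 6 (*Cxcl3*, *Csf2*, *Csf3*, *Il23a*, *Il17c* and *Defb4*) cleared it only in *Pnpla1*-/- skin and could only come out higher. With these 6 at their bounds the median was 2.88, and it was 1.93 after normexp and 4.44 with no filter on dim probes. *Nfkbia* and *Icam1*, of the 14, were under 2-fold after spike-in centring and without scaling. Of the 6 with a bound, *Il23a* was under it after normexp. This list was put together with earlier results of these arrays known, so that its count is not independent evidence of its direction. *S100a8*, an antimicrobial calcium-binding protein gene, had a signal of 2930 in *Pnpla1*+/+ and 185092 in *Pnpla1*-/- skin (difference 6.26), and its partner *S100a9* had 9679 and 202863 (difference 4.67). The neutrophil-attracting chemokine genes *Cxcl5* and *Cxcl1* were higher by 4.90 and 4.68, and *Lcn2*, an iron-trapping antimicrobial protein gene, by 4.71. The β-defensin gene *Defb4* cleared background only on the knockout array, with a bound of at least 44-fold higher. The signals of *Ccl20*, a chemokine gene of the same list, did not clear background on either array. Several of these genes, among them *S100a8*, *S100a9* and *Lcn2*, are also expressed by neutrophils. Whether IL-1, IL-36 or another signal raised the genes of this list in these pools was not tested.

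**Figure D4:**
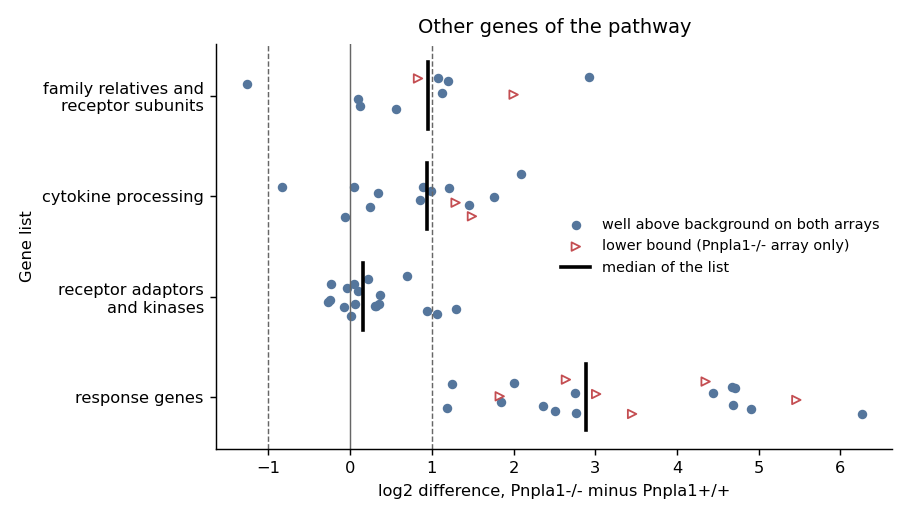
log2 difference, Pnpla1-/- minus Pnpla1+/+, of each gene with a value in 4 lists of the pathway, with a black bar at the median of each list (0.95, 0.94, 0.16 and 2.88) and dashed lines at 2-fold. Open triangles are lower bounds for genes that cleared background only on the *Pnpla1*-/- array. The adaptors and kinases cluster near 0, and the response genes with a value lie beyond the right line.

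Markers of cell types that the skin can hold moved unequally between the pools. Their part in the members' differences was not tested. Of 8 neutrophil markers, 6 were at least 2-fold higher, with a summed scaled signal (each array's 75th percentile as 1) of 1.84 in *Pnpla1*+/+ and 5.64 in *Pnpla1*-/- skin. The chemokine receptor gene *Cxcr2* did not clear background in *Pnpla1*+/+ skin and was at least 59.8-fold higher, whereas 5 of the 7 markers that cleared it on both arrays were past 2-fold. Of these, *Mmp8* was higher by 4.63 and *Mpo* by 4.35 (1.87 for its other probe), and *Retnlg*, *Ngp* and *Ltf* were higher by 3.48, 3.36 and 3.33. *Camp*, the marker with the brightest probe, differed by 0.18, and *Ly6g*, the defining surface marker, by 0.42. The brightness of different probes does not rank genes by abundance, and a summed signal is led by its brightest probes. Neutrophils and monocytes are known sources of IL-1β, and neutrophils of IL-1R2.

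Of 8 monocyte and macrophage markers, 4 were at least 2-fold higher, with a summed scaled signal of 18.3 in *Pnpla1*+/+ and 28.4 in *Pnpla1*-/- skin. These were *Ccr2* (3.27), *Lyz2* (2.35), *Adgre1* (1.24) and *Cd14* (1.02). *Csf1r*, with the brightest probe, differed by 0.67, and the 3 probes of *Itgam* disagreed (−0.03, 1.14 and 2.84). Of 6 Langerhans and dendritic cell markers, 4 were at least 2-fold higher (1.53 in *Pnpla1*+/+ and 8.69 in *Pnpla1*-/- skin), namely *Itgax* (2.82), *H2-Eb1* (2.56, the brightest probe), *Cd74* (2.46) and *H2-Aa* (2.42), while the signal of *Cd207*, which defines Langerhans cells, did not clear background in either genotype. All 3 pan-leukocyte markers were at least 2-fold higher (3.57 and 8.42), with the brightest probe that of *Coro1a* (difference 1.24). After spike-in centring, 1 of these 3 (*Ptprc*) and 2 of the 8 monocyte and macrophage markers (*Ccr2* and *Lyz2*) were past 2-fold, while the counts of 6 neutrophil and 4 dendritic cell markers were the same.

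The other lists were near even or lower. Of 6 mast cell markers, 1 (*Fcer1a*, 1.41) was at least 2-fold higher, and their summed scaled signal was 56.7 in *Pnpla1*+/+ and 39.9 in *Pnpla1*-/- skin, with the brightest probe that of *Cpa3* at −0.52. None of 5 measured T cell markers (0.983 and 1.08, *Lck* brightest at 0.21), 4 fibroblast markers (183 and 184, *Col3a1* at 0.01) or 4 endothelial markers (4.0 and 5.01, *Kdr* at 0.31) passed 2-fold. Of 6 keratinocyte markers, all well above background on both arrays, *Krt14* was higher by 1.35 and the other 5 lay within 2-fold (395 and 481, *Krt10* brightest at 0.20). After spike-in centring, neither *Krt14* nor *Fcer1a* passed 2-fold, and the mast cell protease gene *Cma1* (−0.79 as reported) was at least 2-fold lower, as it was without scaling. The labels name the tissue as skin, while the description of the series also speaks of epidermis, and the fibroblast collagen *Col1a1* had a signal of 101801 in *Pnpla1*+/+ and 93319 in *Pnpla1*-/- skin.

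Directions of the members did not depend on the processing. Under the 12 alternatives all 10 members kept their direction, and the same 7 members were past 2-fold under each of them. The lowest difference of *Il36a* was 3.61, after spike-in centring, and that of *Il1a* was 3.20 and of *Il1b* 2.38, both after normexp background correction, which raises low signals. *Il36b* passed 2-fold under 1 alternative, cyclic loess, with 1.04, and *Il36rn* and *Il1r1* passed it under none. Spike-in centring gave the lowest values of *Il36b* and *Il36rn*, 0.53 and 0.50.

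**Figure D5:**
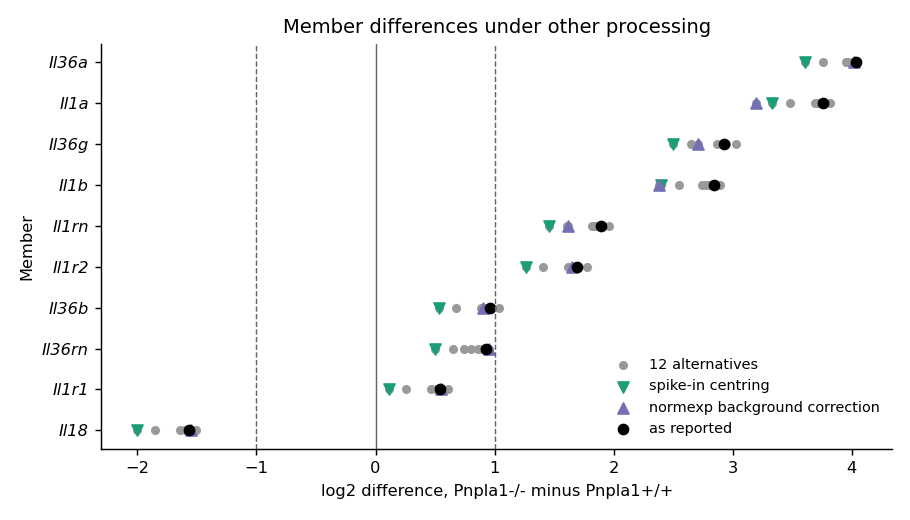
log2 difference, Pnpla1-/- minus Pnpla1+/+, of each member as reported (black) and under 12 alternatives of processing (grey, with spike-in centring and normexp as triangles). Dashed lines mark 2-fold. No point crosses 0. As reported, *Il36b* and *Il36rn* lie close to the right line (0.96 and 0.93), and after spike-in centring they lie further from it (0.53 and 0.50).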

How the data were processed

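Total RNA from newborn skin was pooled from 6 animals per genotype, labelled with Cy3 and hybridized to 1 array per genotype, grouped by the genotype in the sample labels. The authors processed the scans with Agilent Feature Extraction 11.5.1.1, and the deposited intensity of each spot is background-subtracted and not scaled between arrays. The authors also deposited a value table, whose entries are a ratio, that intensity over a single factor for the array (2109 and 1734), and which served as an alternative. The probes' coordinates are those of the scanner files (mm9).

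Each array was scaled by the 75th percentile of its intensities, controls aside, and log2 was taken (Python 3.11.15, pandas 2.3.3, numpy 2.4.6). Spots flagged as outliers on either array were left out (138 flagged for *Pnpla1*+/+ and 82 for *Pnpla1*-/-). Repeated spots were averaged, and each gene was read from its brightest probe. Of 30133 genes, 20680 were well above background on both arrays. For the 1125 genes above background in *Pnpla1*-/- skin only and the 593 in *Pnpla1*+/+ skin only, any difference given is a bound. A few of these genes had none, and 22382 genes in all had a difference or bound. On the dim side the bound uses the lowest signal on the array that cleared background, or the probe's own signal where that is higher. A further 7735 genes were below on both. Of 39429 probes, 31456 were named through RefSeq (GRCm38.p6) and the rest kept the name in the files. Besides the members, the genes named are those past 2-fold in each pathway list, up to the 6 largest, those with a stated role in the pathway, and of each marker list the gene with the brightest probe and those needed to describe the list. A few others were named after their values were seen.

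No test was possible, and the number of arrays sets the precision. The members, the lists and the alternatives were chosen with earlier results of these data known. Alternatives were run with limma 3.58.1 under R 4.3.3 where needed (quantile, cyclic loess, and normexp with an offset of 50), and the computation was tested on simulated data. A planned comparison of the members' proteins was not made here.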

Additional observations from a re-analysis of the deposited data

How the results depend on the processing

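The 12 alternatives concerned the scaling (none, the median, the 75th percentile of detected probes, cyclic loess, quantile normalization, or 8 E1A spike-in probes), the background (normexp), the source (the deposited ratios), the probe (the mean over a gene's probes), the filter (none, or detection required on both arrays) and the outlier flags (ignored). All 10 members kept their direction under each of them, and 90 of the 120 member values lay within the technical SD of the value reported. The median over the members was 1.51 without scaling, 1.36 after spike-in centring and 1.63 after normexp, in place of 1.79. Counts over the whole array moved more. In place of 2180 genes past 2-fold there were 1281 after normexp and 4146 without a filter on dim probes, and at thresholds of 1.5-fold and 3-fold there were 5185 and 912. At 1.5-fold 8 members were higher, and at 3-fold 6 were higher and 0 lower. Without scaling, 998 genes were higher and 1424 lower, and after spike-in centring 827 and 2178, as these settings moved the array-wide median by −0.28 and −0.44. The cause of the gap between the spike-in RNA and the percentile was not tested. No paired analysis was possible because each genotype had 1 array.

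Each genotype is 1 pool on 1 array, so that differences between mice, litters and hybridizations cannot be told apart from the genotype. Normexp lowered the differences of *Il1a*, *Il1b* and *Il1rn*, which had low signals in *Pnpla1*+/+ skin, more than those of the other members. RNA levels do not show processing or release of the cytokines.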

Other observations

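Most members lie in clusters on the genome, described here with the genes next to them in the order of RefSeq on GRCm38.p6. On chromosome 2, *Il36b*, *Il36g*, *Il36a*, *Il36rn*, *Il1f10* and *Il1rn* follow each other with no other protein-coding gene between them, and their differences in that order were 0.96, 2.93, 4.04, 0.93, −1.26 and 1.89, so that *Il1f10* was lower between neighbours that were higher, though under 2-fold after normexp. Of the 10 protein-coding genes that flank this run, 5 on each side, 6 had a difference, of which the lowest was −0.09 and the largest, at *Pax8*, a lower bound of 0.58. Elsewhere on chromosome 2, *Il1a* and *Il1b* are neighbours, and the 9 flanking genes with a difference lay between −0.88 and 2.12. The upper value was that of *Tgm3*, a transglutaminase of the cornified envelope, with a signal of 1085 in *Pnpla1*+/+ and 3866 in *Pnpla1*-/- skin.

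On chromosome 1, *Il1r2* and *Il1r1* are followed by *Il1rl2*, *Il1rl1*, *Il18r1* and *Il18rap*, with differences of 1.69, 0.54, 1.07, 0.10, 1.12 and at least 2.0, of which 4 were past 2-fold. Of the 10 genes that flank *Il1r2* and *Il1r1*, these last 4 included, 9 had a difference, between −0.73 (*Rfx8*) and at least 2.0 (*Il18rap*). At least 2-fold higher were 3, *Il1rl2*, *Il18r1* and *Il18rap*, and all of these were under 2-fold after normexp. *Il1rl2* and *Il18r1* were also under it after spike-in centring and without scaling. On chromosome 9, *Il18* had 9 flanking genes with a difference, between −0.98 (*Ncam1*) and 1.94 (*Plet1*, an epithelial surface protein gene with a signal of 3062 in *Pnpla1*+/+ and 9684 in *Pnpla1*-/- skin). *Tgm3*, *Plet1*, *Ncam1*, *Rfx8* and *Pax8* were named after their values were seen.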
